A study of Mus musculus with 30 samples.

Results

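The enzymes that break down amino acids and run the methionine cycle were followed in mouse liver across 8 groups of arrays. The members are a list of 56 genes of these routes, chosen by name with earlier results of these data known. Of these, 52 had a probe set assigned to 1 gene symbol, out of 18820 such genes on the array. The list holds 21 genes of branched-chain amino acid and propionate breakdown, 9 of aromatic amino acid breakdown, 4 of histidine, 4 of serine and cysteine, 5 of glycine, 3 of proline, 3 of lysine and 5 of methionine, with 2 general transaminases. Sds and Sdsl, the serine dehydratases, had no listed probe set. Afmid and Aldh7a1 lay only on probe sets shared with a neighbouring gene, Tk1 and Phax respectively, and were not read.

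The liver is the main site where most amino acids lose their nitrogen and have their carbon skeletons turned into glucose precursors, ketone bodies or citric acid cycle intermediates. Most of these steps are carried out by enzymes that are abundant in hepatocytes, and many of the first steps limit the flux through their route. The methionine cycle makes S-adenosylmethionine, the general methyl donor, returns homocysteine to methionine and sends sulphur on to cysteine. PPARα is a nuclear receptor activated by fatty acids, and CREB3L3 is a membrane-bound transcription factor of liver and intestine. Both are known as regulators of the hepatic response to fasting.

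RNA from livers of male mice of about 8 weeks was hybridised to Affymetrix Mouse Gene 1.1 ST arrays, 1 mouse per array. Wild-type (WT) C57BL/6 mice, PPARα−/− mice, CREB3L3−/− mice and PPARα/CREB3L3−/− mice, which lack both factors, either went without food for 16 h or had free access to a ketogenic diet over 4 days. There were 4 arrays in each group, except 3 in each of the PPARα−/− groups. Whole-body knockouts were used, so that loss in the intestine and other organs is part of each comparison. The PPARα−/− and CREB3L3−/− lines were interbred to give the mice lacking both, and no chow-fed group was measured, so that each regimen serves as the reference for the other. Values are log2 intensities normalised by the authors, and the medians of the 30 arrays ran from 4.22 to 4.38. A gene is called higher or lower where limma gave P under 0.001 and the fold change was beyond 1.2, and p-values were adjusted by the method of Benjamini and Hochberg across the 35556 probe sets. The labels do not say whether mice of a group were littermates or were handled on separate days, so that p-values measure the spread between these arrays.

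The targeted gene was checked first. Creb3l3 lay between 10.42 and 11.28 on the 8 WT arrays and between 4.29 and 5.36 on the 16 arrays from mice lacking CREB3L3, with no overlap. Ppara lay between 10.37 and 10.54 on the WT arrays of the ketogenic diet and between 7.22 and 7.95 in PPARα−/− mice, but its probes span the transcript and only part of the gene is deleted, so that this probe set does not check the genotype. In CREB3L3−/− mice on the diet, Ppara itself lay between 8.01 and 8.99, and its difference from WT was −1.85 on the log2 scale.

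Upstream sequence is shown for the genes of the switch that sets the activity of the branched-chain 2-oxo acid dehydrogenase. They were chosen with earlier results of these data known. Ppm1k encodes the phosphatase that activates the complex and Bckdk the kinase that inactivates it. The 250 bases before the annotated start are given 5′ to 3′ in the direction of the gene, from RefSeq on GRCm38.p6, at chr6:57535488-57535737 on the minus strand for Ppm1k and at chr7:127903823-127904072 on the plus strand for Bckdk. Capitals mark a match to TGACGT, the core letters of elements bound by factors of the CREB type. Neither window held a match to the direct repeat that PPARα binds as a partner of RXR, searched as AGGTCA, any 1 base and AGGTCA again with at most 2 mismatches.
Ppm1k: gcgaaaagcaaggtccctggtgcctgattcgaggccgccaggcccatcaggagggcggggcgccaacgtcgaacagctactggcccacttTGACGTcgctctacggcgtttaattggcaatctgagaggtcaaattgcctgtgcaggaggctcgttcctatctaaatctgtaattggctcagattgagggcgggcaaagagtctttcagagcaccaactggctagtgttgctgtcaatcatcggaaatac
Bckdk: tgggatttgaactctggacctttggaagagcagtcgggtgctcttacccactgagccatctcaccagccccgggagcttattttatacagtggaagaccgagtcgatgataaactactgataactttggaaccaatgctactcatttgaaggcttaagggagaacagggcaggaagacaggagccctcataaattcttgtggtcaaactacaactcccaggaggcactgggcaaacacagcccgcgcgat

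The same letters were searched on both strands in the RefSeq promoters of the members, each 250 bases before to 50 bases after the start. A promoter was matched for 44 of the 52 members. Of these, 6 held the repeat with at most 2 mismatches, which is 13.6%, against 3.81% of all 27025 promoters. TGACGT was found in 3 of the 44, those of Ppm1k, Aass and Csad, which is 6.82%, against 7.64% of all promoters. The matches to the repeat are given with up to 10 bases on each side, as read on the strand of the gene, where the reverse complement reads TGACCT, any base and TGACCT again, and with the matched letters in capitals. They show the members whose windows hold it. All of them carry 2 mismatches. They are at chr6:23133091-23133123 on the minus strand for Aass, chr12:84451109-84451141 on the minus strand for Aldh6a1, chr9:108296655-108296680 on the plus strand for Amt, chr13:93637808-93637840 and chr13:93637790-93637822 on the minus strand for Bhmt, chr1:175632087-175632119 on the plus strand for Kmo and chr7:30493499-30493531 on the plus strand for Prodh2. The shares are set against all promoters and not against those of genes expressed in liver. Of these genes, Aass, Aldh6a1 and Bhmt were called lower against WT in CREB3L3−/− mice on the diet alone. Bhmt was called higher in PPARα/CREB3L3−/− mice on the diet. Amt, Kmo and Prodh2 were also called lower in mice lacking PPARα. A match describes the letters in the window and was not tested as a binding site.
Aass: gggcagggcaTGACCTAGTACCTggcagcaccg
Aldh6a1: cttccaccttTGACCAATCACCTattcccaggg
Amt: tggAGAACTTTGACCTtctggaggct
Bhmt, farther from the start: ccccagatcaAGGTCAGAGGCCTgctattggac
Bhmt, nearer to the start: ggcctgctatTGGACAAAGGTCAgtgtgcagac
Kmo: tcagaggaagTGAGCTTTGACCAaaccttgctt
Prodh2: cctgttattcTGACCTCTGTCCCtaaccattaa

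Across the 8 groups, the members stood low in 1 of them. CREB3L3−/− mice on the ketogenic diet had the lowest group mean for 49 of the 52 members. The mean over the 52 members lay between 7.98 and 8.78 on these 4 arrays. On the WT arrays of the diet it lay between 9.98 and 10.3, in PPARα−/− mice between 9.74 and 9.78, and in PPARα/CREB3L3−/− mice between 9.66 and 9.91. On the fasted WT arrays it lay between 10.29 and 10.49, in fasted PPARα−/− mice between 10.19 and 10.31, in fasted CREB3L3−/− mice between 10.19 and 10.24 and in fasted mice lacking both between 10.05 and 10.25. The highest group mean was in fasted WT mice for 18 members, in fasted PPARα−/− mice for 15 and in WT mice on the diet for 12.

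**Figure D1:**
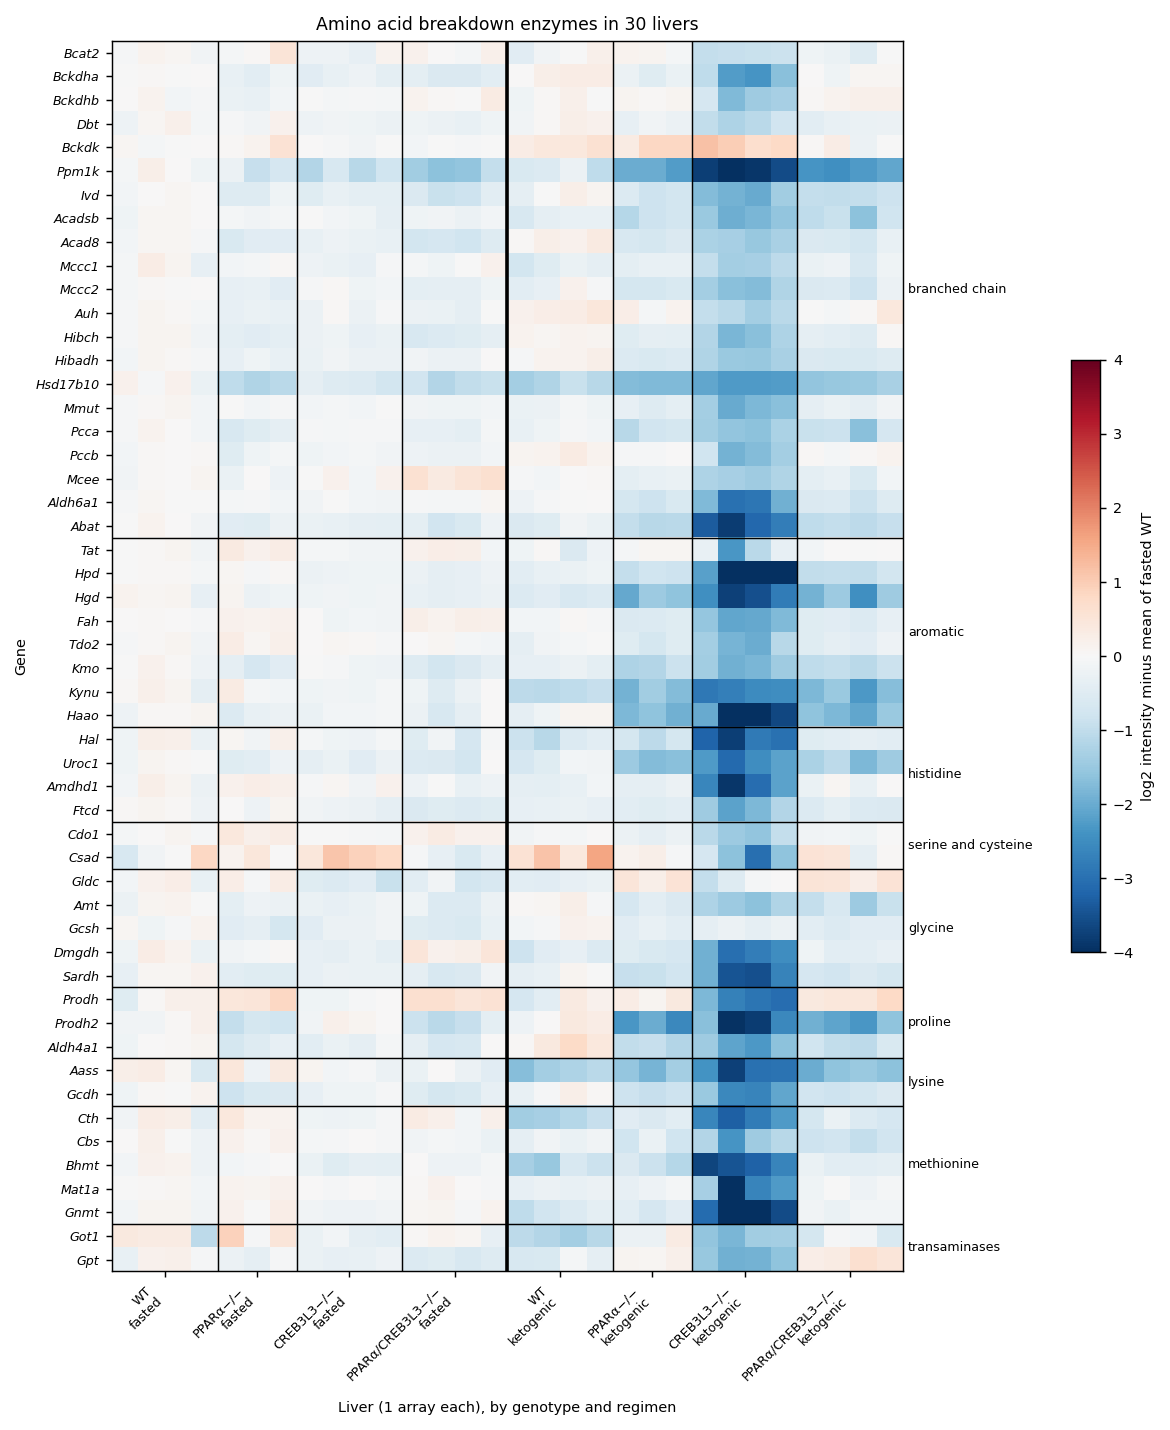
Log2 intensity of the 52 measured members (rows, ordered by route) on each of the 30 arrays (columns, by group), as the difference from the mean of the fasted WT arrays. The colour scale ends at −4 and 4, and the 4 arrays of CREB3L3−/− mice on the ketogenic diet form the dark band that covers nearly all routes.

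In the fasted state, few of these enzymes met the criteria after loss of either factor. In PPARα−/− mice 5 of the 52 members fell and 0 rose, against 4.00% of all probe sets changed, or 10.0% of the 10569 probe sets at least as bright as the dimmest member. In CREB3L3−/− mice 2 fell and 0 rose, against 1.39% of all probe sets, or 3.09% of the bright ones. In PPARα/CREB3L3−/− mice 9 fell and 1 rose, against 6.98%, or 16.8% of the bright ones. The median log2 change over the members was −0.09, −0.15 and −0.24 in this order. Counting falls alone, 4.36%, 1.34% and 6.87% of the bright probe sets fell. Without overlap with WT, 19, 13 and 17 members lay lower, as did 8.34%, 3.25% and 7.75% of all probe sets. Of these members, 11, 8 and 10 were from the 21 of the branched-chain group, and 0, 1 and 0 from the 5 methionine members. In the other direction 5, 0 and 4 members lay higher, as did 10.2%, 5.05% and 9.02% of all probe sets. The counts of calls were larger with the fasted arrays fitted alone, as given below. At an unadjusted limma p under 0.05, 2 members were higher and 15 lower in PPARα−/− mice and 1 higher and 13 lower in CREB3L3−/− mice. IBMT, the version of the test named in the study's methods, gave the same counts of calls in each direction as limma here and in every comparison below. These comparisons share the same WT arrays.

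Hsd17b10, which oxidises an intermediate of isoleucine breakdown in mitochondria, had the largest change in fasted PPARα−/− mice. It read 11.40, 11.18, 11.39 and 10.96 in fasted WT mice and 10.23, 10.02 and 10.17 in fasted PPARα−/− mice. In fasted CREB3L3−/− mice it read 10.86, 10.70, 10.69 and 10.50, and in fasted PPARα/CREB3L3−/− mice 10.47, 10.07, 10.24 and 10.34. All knockout arrays lay below all WT arrays, and the PPARα−/− arrays were the lowest as a group. The log2 change was −1.09 (SE 0.11, limma adjusted p = 2.42e-07) in PPARα−/− mice. It was −0.54 (SE 0.10, adjusted p = 0.00549) with CREB3L3 absent and −0.95 (SE 0.10, adjusted p = 3.74e-07) in mice lacking both. The CREB3L3 effect in the presence and absence of PPARα differed by 0.69 (SE 0.15, adjusted p = 0.0557), which passed the criteria on P and fold but not an adjusted p of 0.05. This test was passed by 2 members, both positive, against 0.762% of all probe sets.

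Ppm1k was the other member that fell in fasted CREB3L3−/− mice. It read 9.86, 10.19, 9.98 and 9.77 in fasted WT mice, 8.79, 9.29, 8.82 and 9.16 in fasted CREB3L3−/− mice and 8.56, 8.32, 8.36 and 8.99 in fasted mice lacking both. Each knockout group lay wholly below the WT group. Its log2 change was −0.93 (SE 0.16, limma adjusted p = 0.0029) with CREB3L3 absent and −1.39 (SE 0.16, adjusted p = 1.44e-06) in mice lacking both. In PPARα−/− mice it read 9.71, 9.04 and 9.27, a difference of −0.61 (SE 0.18, adjusted p = 0.0388) that did not meet the criterion on P.

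The other members that fell in fasted PPARα−/− mice were Acad8, the isobutyryl-CoA dehydrogenase of valine breakdown, Gcsh, the carrier protein of the glycine cleavage system, Kmo, the kynurenine hydroxylase of tryptophan breakdown, and Gcdh, the glutaryl-CoA dehydrogenase of lysine breakdown. Their log2 changes lay between −0.67 for Gcdh and −0.49 for Kmo. The count of 5 dropped to 3 without WT replicate 2 or 3 or without PPARα−/− replicate 2 or 3 of the fasted arrays, and Gcdh and Kmo were the calls that were lost under some of the settings tried. In mice lacking both factors Acad8, Gcsh and Kmo fell again, and Ivd, the isovaleryl-CoA dehydrogenase of leucine breakdown, Hibch, a hydrolase of valine breakdown, Ftcd of histidine breakdown and Gpt, the alanine transaminase, fell as well.

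Mcee, the methylmalonyl-CoA epimerase of the propionate route, was the member that rose in fasted mice lacking both factors. It read 10.06, 9.79, 9.96 and 10.09 there, 9.30, 9.48, 9.45 and 9.54 in fasted WT mice, and between 9.18 and 9.61 on the 7 arrays of the single knockouts. All 4 arrays of the combined knockout lay above all others. The log2 difference from WT was 0.53 (SE 0.09, limma adjusted p = 0.000208) and that from PPARα−/− mice 0.68 (SE 0.10, adjusted p = 0.000182). The test of whether the CREB3L3 effect differs with and without PPARα gave 0.63 (SE 0.13, adjusted p = 0.0504).

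Between fasted PPARα/CREB3L3−/− and PPARα−/− mice, 4 members differed, against 1.67% of all probe sets. Mcee was higher, and Ppm1k (−0.78, SE 0.18, limma adjusted p = 0.0206), Ftcd (−0.50, SE 0.13, adjusted p = 0.0508) and Gldc, the decarboxylase of the glycine cleavage system (−0.67, SE 0.18, adjusted p = 0.0583), were lower. The count was 1 without PPARα−/− replicate 1 and 2 without PPARα−/− replicate 3 or any one of the 4 arrays of the combined knockout.

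On the ketogenic diet, nearly the whole set was low in CREB3L3−/− livers. Of the 52 members, 48 fell and 1 rose against WT mice on the diet, where 8.56% of all probe sets fell and 12.8% rose, and 22.7% of the bright probe sets fell. The median log2 change over the members was −1.57, against −0.06 over all probe sets. The fall was beyond 2-fold for 45 members, beyond 4-fold for 20 and beyond 8-fold for 5. For 49 members all 4 CREB3L3−/− arrays lay below all 4 WT arrays, as they did for 14.9% of all probe sets. Leaving out any 1 of the 8 arrays compared left 47 or 48 members changed. In bulk tissue, fewer cells of a type and less RNA per cell cannot be told apart.

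**Figure D2:**
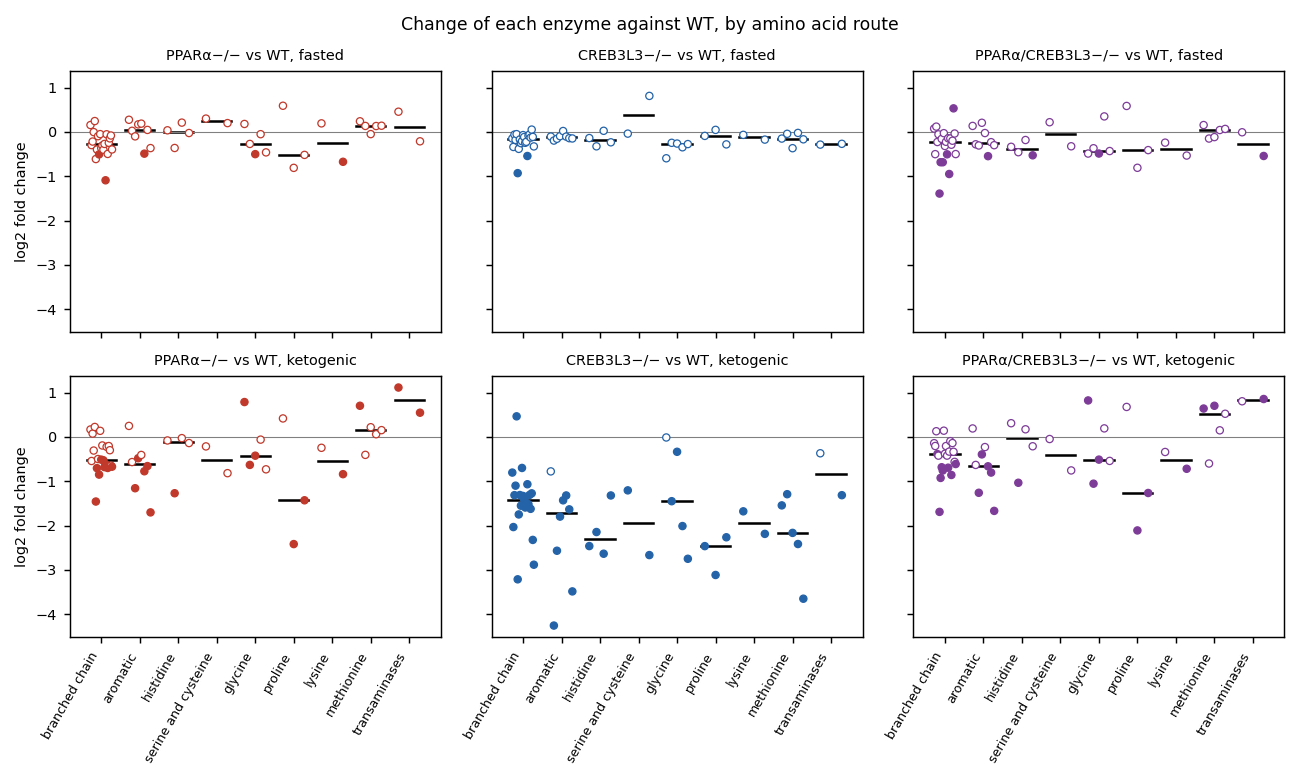
Log2 fold change against WT mice of the same regimen for each member (points, by route) in 6 panels, 1 for each knockout and regimen, with a bar at the median of the route and filled points for members that met P under 0.001 and a fold beyond 1.2. In CREB3L3−/− mice on the ketogenic diet all 9 route medians lie below 0, from −2.47 for proline to −0.84 for the transaminases.

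Tyrosine breakdown held the member with the widest fall. Hpd, the 4-hydroxyphenylpyruvate dioxygenase, read 12.21, 12.33, 12.39 and 12.48 in WT mice on the diet and 10.47, 6.82, 7.06 and 8.03 in CREB3L3−/− mice. The 4 knockout livers differed widely among themselves, and the highest of them was still below every WT liver. The log2 change was −4.26 (SE 0.41, limma adjusted p = 3.53e-09), or 19.1-fold. The SD of Hpd was 1.67 in the CREB3L3−/− group and 0.114 in the WT group, whereas limma uses 1 spread for all groups. The next enzymes of the same route fell too, Hgd, the homogentisate dioxygenase, by 5.94-fold and Fah, the fumarylacetoacetase, by 3.48-fold. Fah had the lowest P among the members (log2 change −1.80, SE 0.08, adjusted p = 5.48e-15). Tat, the transaminase that feeds this route, did not meet the criterion on P, with values between 10.73 and 12.77 in CREB3L3−/− mice, between 12.49 and 13.09 in WT mice and a difference of −0.78 (SE 0.25, adjusted p = 0.0165).

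The 4 measured members of the tryptophan route all fell. Tdo2, the dioxygenase of its first step, fell by 1.43 on the log2 scale, Kmo by 1.32, Kynu, the kynureninase, by 1.64 and Haao, the dioxygenase that leads on to quinolinate, by 3.49. Haao read 10.17, 10.37, 10.66 and 10.65 in WT mice on the diet and 8.53, 6.09, 6.38 and 6.90 in CREB3L3−/− mice. As for Hpd, CREB3L3−/− replicate 1 stood highest in its group and below all WT livers. The change was 11.2-fold (SE 0.29 on the log2 scale, limma adjusted p = 3.69e-10). In all, 7 of the 8 measured aromatic members fell, with a median log2 change of −1.72.

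Branched-chain amino acid and propionate breakdown counted 20 members that fell and 1 that rose, with a median log2 change of −1.42. Ppm1k, the phosphatase whose upstream sequence is shown above, read 9.32, 9.41, 9.70 and 8.95 in WT mice on the diet and 6.17, 5.91, 6.07 and 6.37 in CREB3L3−/− mice. The knockout livers lay close together and far below the WT livers. The change was 9.29-fold (log2 −3.22, SE 0.16, limma adjusted p = 7.32e-14). Bckdk, the opposing kinase, was the 1 member that rose. It read 7.91, 8.04, 8.03 and 8.23 in WT mice and 8.77, 8.59, 8.28 and 8.42 in CREB3L3−/− mice, so that the groups did not overlap. Its log2 change was 0.46 (SE 0.12, adjusted p = 0.00396), and the call was lost without 6 of the 8 arrays in turn, with values between 0.38 and 0.54 over all settings tried.

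The dehydrogenase complex itself fell in its 3 measured subunits on the list. Bckdha and Bckdhb, the subunits of the decarboxylase, fell by 2.03 and 1.31 on the log2 scale. Dbt, the core transacylase, fell by 2.14-fold. Bcat2, the transaminase of the first step and the dimmest member, fell by 0.80. These subunits stood beside a wider fall of Ppm1k, and the ratio between them was not tested.

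The steps after the complex fell in each branch. In the leucine branch Ivd read 9.68, 10.03, 10.28 and 10.16 in WT mice and 8.31, 8.17, 8.02 and 8.65 in CREB3L3−/− mice, a fall of 3.36-fold. Auh, the methylglutaconyl-CoA hydratase, read 7.95, 8.07, 8.10 and 8.26 in WT mice and 6.85, 6.71, 6.44 and 6.71 in CREB3L3−/− mice, a fall of 2.67-fold. No knockout liver reached the WT range for either gene. Mccc1 and Mccc2, the subunits of the carboxylase between them, fell by 0.70 and 1.33 on the log2 scale.

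In the valine branch Acad8 read 8.67, 8.86, 8.80 and 8.97 in WT mice and 7.36, 7.30, 7.10 and 7.32 in CREB3L3−/− mice. Hibch read 8.37, 8.31, 8.38 and 8.33 in WT mice and 7.05, 6.40, 6.57 and 6.99 in CREB3L3−/− mice. Hibadh, the hydroxyisobutyrate dehydrogenase, read 10.83, 11.02, 11.03 and 11.12 in WT mice and 9.69, 9.39, 9.36 and 9.58 in CREB3L3−/− mice. For each of these 3 genes the highest knockout liver lay well below the lowest WT liver, and the log2 changes were −1.55, −1.59 and −1.49 (SE 0.09, 0.12 and 0.07). Aldh6a1, the methylmalonate semialdehyde dehydrogenase that ends the branch, fell by 5.01-fold. Hibadh had 2 other probe sets, both much dimmer, of which 1 fell by 0.72 and 1 rose by 1.18 on the log2 scale, so that the sets of this gene disagree.

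The isoleucine branch and the propionate route that follows fell as well. Acadsb, the short/branched chain acyl-CoA dehydrogenase, fell by 1.31 and Hsd17b10 by 1.07 on the log2 scale. Hsd17b10 read 9.88, 10.03, 10.34 and 10.12 in WT mice on the diet and 9.16, 8.96, 8.97 and 8.99 in CREB3L3−/− mice, without overlap. Pcca and Pccb, the subunits of propionyl-CoA carboxylase, fell by 1.31 and 1.62, Mcee by 1.27 and Mmut, the mutase named Mut in the member list, by 1.52. Abat, the GABA transaminase, read 10.97, 11.08, 11.43 and 11.28 in WT mice and 8.22, 7.78, 8.42 and 8.80 in CREB3L3−/− mice. This was the widest fall of the branched-chain group after Ppm1k, 7.39-fold (SE 0.14 on the log2 scale, limma adjusted p = 3.52e-14), and the second, dimmer probe set of Abat fell by 1.12 on the log2 scale.

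All 5 methionine members fell, with a median log2 change of −2.17. Gnmt, the glycine N-methyltransferase that uses up S-adenosylmethionine, read 11.07, 11.33, 11.53 and 11.70 in WT mice on the diet and 9.02, 6.39, 7.10 and 8.52 in CREB3L3−/− mice, 12.6-fold lower (SE 0.31 on the log2 scale, limma adjusted p = 4.44e-10). Bhmt, which remethylates homocysteine with betaine, read 11.71, 11.52, 12.38 and 12.15 in WT mice and 9.35, 9.57, 9.77 and 10.40 in CREB3L3−/− mice, 4.49-fold lower (SE 0.17, adjusted p = 9.76e-11). Neither pair of groups overlapped, and the second probe set of Bhmt fell too, by 1.43 on the log2 scale. Mat1a, the liver enzyme that makes S-adenosylmethionine, fell by 5.34-fold, with an SD of 1.33 in the knockout group against 0.0494 in WT. Cbs and Cth, which carry sulphur from homocysteine to cysteine, fell by 1.29 and 1.55 on the log2 scale.

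The glycine members were divided. Sardh and Dmgdh, the sarcosine and dimethylglycine dehydrogenases, fell by 6.73-fold and 4.03-fold. Sardh read 11.24, 11.30, 11.70 and 11.59 in WT mice and 9.68, 8.13, 8.08 and 8.93 in CREB3L3−/− mice, and Dmgdh read 10.22, 10.60, 10.72 and 10.49 against 9.12, 8.04, 8.26 and 8.56. Both were lower on every knockout array than on any WT array. Of the glycine cleavage system, Amt, the aminomethyltransferase, fell by 1.45, while Gcsh fell by 0.34 (SE 0.09, limma adjusted p = 0.00419), a call that was lost in 8 of 18 alternative settings. Gldc read 8.82, 9.26, 9.70 and 9.79 in CREB3L3−/− mice and 9.36, 9.32, 9.45 and 9.50 in WT mice, overlapping ranges with a difference of −0.01 (SE 0.17).

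Proline had the lowest route median, −2.47. Prodh and Prodh2, the dehydrogenases for proline and hydroxyproline, and Aldh4a1, the dehydrogenase that acts after both, all fell. Prodh read 9.27, 9.53, 10.30 and 10.11 in WT mice and 8.16, 7.24, 7.04 and 6.91 in CREB3L3−/− mice. Prodh2 read 9.45, 9.69, 10.04 and 9.96 in WT mice and 7.99, 5.71, 5.87 and 7.10 in CREB3L3−/− mice. Neither gene overlapped between the groups, and the log2 changes were −2.47 (SE 0.21) and −3.12 (SE 0.30).

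All 4 histidine members fell. Hal, the histidine ammonia lyase, read 10.39, 10.12, 10.71 and 10.82 in WT mice and 8.04, 7.48, 8.42 and 8.25 in CREB3L3−/− mice. Amdhd1, the imidazolonepropionase, read 9.89, 9.86, 9.94 and 10.14 in WT mice and 7.63, 6.35, 7.20 and 8.09 in CREB3L3−/− mice. The gap between the groups exceeded 1 log2 unit for both, with log2 changes of −2.46 (SE 0.17) and −2.64 (SE 0.20). Uroc1, the urocanase, and Ftcd fell by 2.15 and 1.32.

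For lysine, Aass, which starts the saccharopine route, read 9.92, 10.27, 10.39 and 10.54 in WT mice and 9.22, 7.89, 8.63 and 8.67 in CREB3L3−/− mice. Gcdh read 11.23, 11.46, 11.74 and 11.56 in WT mice and 10.01, 8.93, 8.86 and 9.43 in CREB3L3−/− mice. Both fell without overlap, by 3.2-fold and 4.56-fold.

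Of the cysteine members, Csad, the cysteine sulphinate decarboxylase of taurine synthesis, read 9.64, 10.23, 9.51 and 10.67 in WT mice and 8.41, 7.42, 6.07 and 7.48 in CREB3L3−/− mice. Cdo1, the cysteine dioxygenase before it, read 12.12, 12.23, 12.18 and 12.27 in WT mice and 11.18, 10.80, 10.68 and 11.31 in CREB3L3−/− mice. Csad varied widely in both groups and Cdo1 little, and both fell without overlap, by 6.35-fold and 2.31-fold.

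Of the general transaminases, Gpt read 9.13, 9.17, 9.72 and 9.44 in WT mice and 8.27, 7.86, 7.89 and 8.17 in CREB3L3−/− mice, a fall of 2.49-fold. Got1, the aspartate transaminase, read 10.73, 10.58, 10.42 and 10.65 in WT mice and 10.17, 9.95, 10.37 and 10.42 in CREB3L3−/− mice. The highest knockout liver lay just below the lowest WT liver, and the difference of −0.37 (SE 0.24, limma adjusted p = 0.271) did not meet the criteria.

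**Figure D3:**
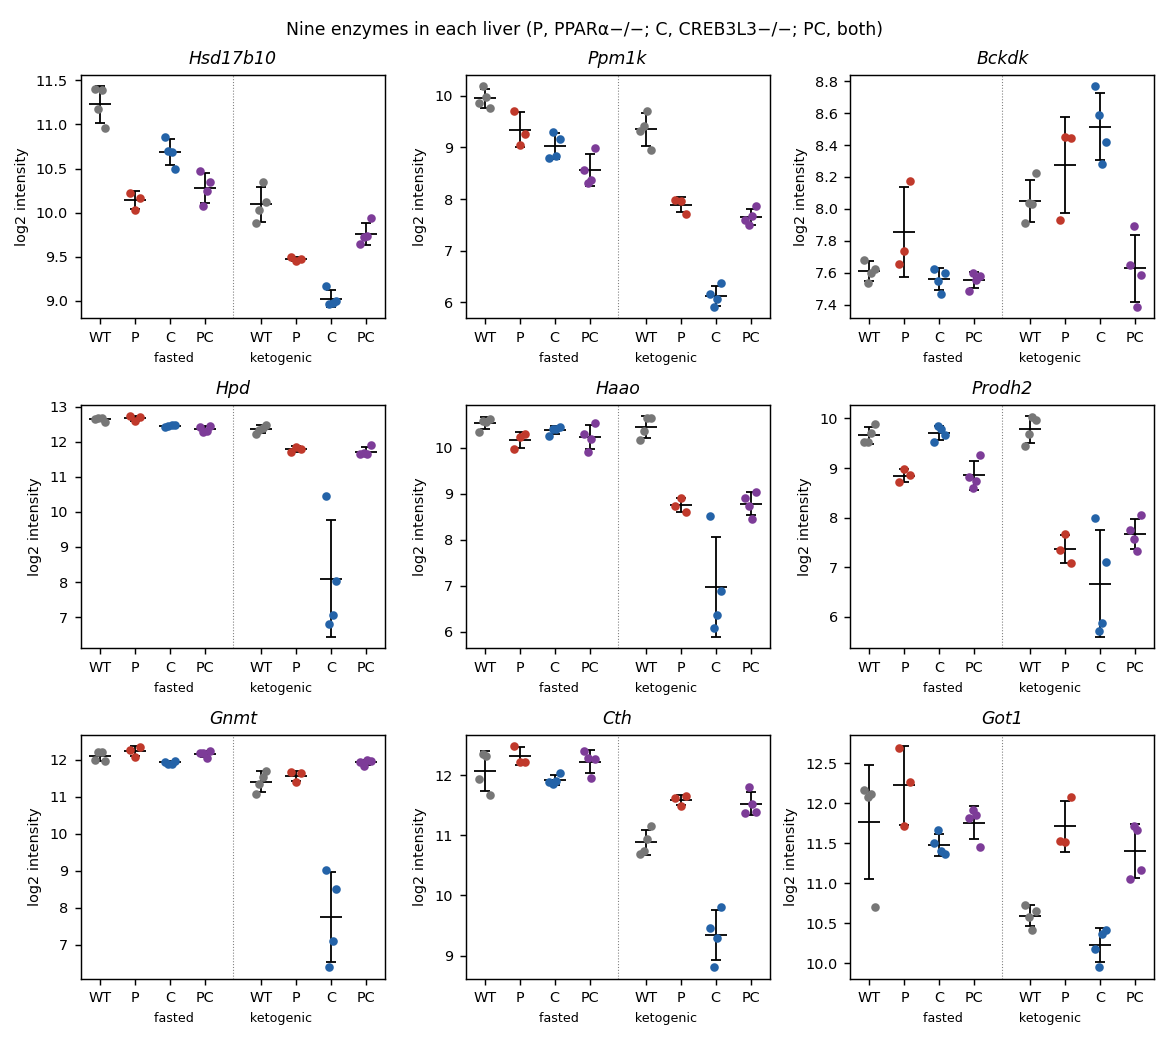
Log2 intensity of 9 members on each array (points), with the mean and SD of each group (bars), for WT, PPARα−/− (P), CREB3L3−/− (C) and PPARα/CREB3L3−/− (PC) mice after the fast and on the ketogenic diet. Hpd, Haao, Prodh2 and Gnmt are spread over several log2 units in CREB3L3−/− mice on the diet, whereas Ppm1k is low in all 4 of them, and Bckdk has its highest mean there.

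Markers of other cell types and of dividing cells moved in the same livers. All 9 proliferation markers rose in CREB3L3−/− mice on the diet, with a median log2 change of 4.21. Their mean level lay between 7.90 and 9.07 there, against 3.85 to 5.25 in WT mice, 3.70 to 3.90 in PPARα−/− mice and 3.84 to 3.99 in mice lacking both, where 7 and 8 of the 9 were near background. Of 8 stellate cell markers, 7 rose, and their mean level was 7.54 to 8.04 against 6.29 to 6.61 in WT mice. Of 9 macrophage markers 4 rose (7.97 to 8.42 against 6.88 to 7.54 in WT mice), and of 6 cholangiocyte markers 3 rose (4.78 to 5.18 against 4.04 to 4.26). Of these 6, Epcam and Cftr were near background in CREB3L3−/− mice, and 5 were in WT mice. Near background means a group mean below 4.38, the highest array median. Of 5 neutrophil markers, 4 of them near background in WT mice, 2 rose (median 1.23). Of 7 endothelial markers 2 rose and 1 fell (median −0.15), and of 7 lymphocyte markers, all near background, 1 fell (median −0.39).

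Of 9 general hepatocyte markers, 6 fell and 0 rose, with a median log2 change of −0.35 and mean levels of 12.2 to 12.5 against 12.8 to 12.9 in WT mice. The same list had a median of −0.37 in PPARα−/− mice and −0.29 in mice lacking both. Hepatocyte genes of the zone around the portal vein (median −1.65, 7 of 9 lower and 1 higher) and of the zone around the central vein (median −1.79, 10 of 12 lower) both lay below their WT levels. These lists are not separate from the enzymes. The portal list holds Hal, itself a member, and the central list holds Oat and Glul, which also count among the other pathway genes below. The part of dividing cells, of other cell types and of zonation in the fall of the amino acid enzymes was not tested.

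Loss of PPARα alone on the ketogenic diet gave a smaller and mixed change. In PPARα−/− mice 20 members fell and 4 rose, where 4.81% of all probe sets fell and 6.11% rose, and 12.0% of the bright ones fell. The median log2 change was −0.42, and 6 members fell beyond 2-fold. In PPARα/CREB3L3−/− mice 19 fell and 4 rose, where 6.87% of all probe sets fell and 7.11% rose, and 16.8% of the bright ones fell, with a median of −0.38 and 7 members beyond 2-fold. Both are set against the same WT arrays as CREB3L3−/− mice. Without PPARα−/− replicate 3 of the diet, the first count was 14 lower and 0 higher, and with the ketogenic arrays fitted alone it was 12 lower and 2 higher.

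Marker lists moved in these livers too. The genes of the zone around the central vein had a median log2 change of −1.09 in PPARα−/− mice (5 of 12 lower) and −1.14 in mice lacking both (6 of 12 lower), with mean levels of 8.22 to 8.65 and 8.07 to 9.12 against 9.29 to 9.99 in WT mice. Those of the zone around the portal vein had medians of 0.13 and 0.22, with 2 of 9 lower in each and 1 higher in mice lacking both. Of the macrophage markers 4 of 9 fell in each, and of the stellate markers 3 of 8. Of the endothelial markers 1 of 7 fell in PPARα−/− mice, while 5 fell and 1 rose in mice lacking both. Of the lymphocyte markers, all near background, 4 and 2 of 7 fell, and of the proliferation markers 1 and 2 of 9. The part of these shifts in the changes of the amino acid enzymes was not tested.

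Of the 3 proline members, Prodh2 and Aldh4a1 fell in both groups and Prodh did not. Prodh2 read 7.34, 7.66 and 7.09 in PPARα−/− mice and 7.75, 7.56, 7.33 and 8.05 in mice lacking both, all below the lowest WT value of 9.45. The fall was 5.35-fold in PPARα−/− mice (log2 −2.42, SE 0.33, limma adjusted p = 3.1e-06) and 4.32-fold in mice lacking both (SE 0.30, adjusted p = 5.33e-06). Aldh4a1 fell by 1.43 and 1.27 on the log2 scale. Prodh read 10.26, 10.05 and 10.35 in PPARα−/− mice, within its WT range except for the highest value, and its difference of 0.42 (SE 0.23, adjusted p = 0.269) was not called. In mice lacking both, Prodh lay between 10.36 and 10.75, above the highest WT value of 10.30 on every array, and the difference of 0.68 (SE 0.21, adjusted p = 0.0219) missed the criterion on P.

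Of the branched-chain group, 9 of 21 members fell in PPARα−/− mice and 8 in mice lacking both. Ppm1k read 7.98, 7.97 and 7.72 in PPARα−/− mice and 7.59, 7.50, 7.67 and 7.86 in mice lacking both, 2.75-fold and 3.23-fold below WT (limma adjusted p = 6.32e-07 and 9.64e-09). All 7 of these arrays lay between the WT arrays and those of CREB3L3−/− mice. Acad8 (−0.85 and −0.76), Hibadh (−0.68 and −0.69), Ivd (−0.70 and −0.93), Pcca (−0.70 and −0.86) and Abat (−0.67 and −0.61) fell in both. Hsd17b10, Hibch and Mccc2 met the criteria in PPARα−/− mice alone of the pair, and Acadsb and Dbt in mice lacking both alone. By the test of the difference between the pair, these 5 lay between −0.19 and 0.29 and none was called.

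By the criteria, 5 of the 8 measured aromatic members fell in each group. Without overlap with WT, 7 lay lower in PPARα−/− mice and 6 in mice lacking both, as did 11.2% and 10.4% of all probe sets. Haao read 8.74, 8.92 and 8.62 in PPARα−/− mice and 8.92, 8.75, 8.47 and 9.04 in mice lacking both, against a lowest WT value of 10.17. The fall was 3.26-fold (limma adjusted p = 0.000246) and 3.18-fold (adjusted p = 8.83e-05). Hgd (−1.16 and −1.26), Kmo (−0.78 and −0.66), Kynu (−0.66 and −0.80) and Fah (−0.48 and −0.39) fell as well. Hpd read 11.70, 11.85 and 11.80 in PPARα−/− mice and 11.64, 11.68, 11.64 and 11.91 in mice lacking both, all below the lowest WT value of 12.21. Its difference of −0.57 in PPARα−/− mice (SE 0.44, limma adjusted p = 0.483) was not called. That SE rests on 1 spread for all groups, and the SD of Hpd was 1.67 in CREB3L3−/− mice on the diet. The remaining falls in each group were Uroc1 of histidine breakdown (−1.27 and −1.04), Amt and Gcsh of glycine cleavage, and Gcdh of lysine breakdown (−0.84 and −0.72).

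The 4 of 52 members that rose in each group belonged to transamination, glycine cleavage and the methionine routes. Of the 10569 bright probe sets, 1615 rose in PPARα−/− mice, which is 15.3%, and 1795 in mice lacking both. Rises were thus less frequent among the members than among the bright probe sets. They were not less frequent than among all probe sets, of which 6.11% rose in PPARα−/− mice and 7.11% in mice lacking both. As given above, the count of rises in PPARα−/− mice depended on a single array of that group. Gpt read 9.88, 9.85 and 10.00 in PPARα−/− mice and 10.05, 10.11, 10.44 and 10.28 in mice lacking both, above the highest WT value of 9.72 on every array. Its log2 change was 0.55 (SE 0.13, limma adjusted p = 0.00316) and 0.86 (SE 0.12, adjusted p = 4.03e-06). Gldc rose by 0.79 and 0.82 and Cth by 0.70 and 0.64 on the log2 scale. Got1 read 11.53, 11.52 and 12.08 in PPARα−/− mice, all above the WT arrays, a rise of 1.12 (SE 0.26, adjusted p = 0.00266), and Bhmt rose by 0.70 (SE 0.17, adjusted p = 0.00267) in mice lacking both.

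The effect of losing CREB3L3 on the diet differed with and without PPARα. Between PPARα/CREB3L3−/− and PPARα−/− mice, which share no array with the comparison of CREB3L3−/− and WT mice, 0 members were called higher and 1 lower. Of all probe sets 2.42% were called changed, and the median log2 difference over the members was 0.06. Without overlap of the ranges, 11 members lay higher in PPARα/CREB3L3−/− mice and 1 lower, as did 5.67% and 6.98% of all probe sets. The test of the difference between the CREB3L3 effects without and with PPARα was positive for 46 members and negative for 1, against 5.94% and 10.0% of all probe sets. The median of this difference over the members was 1.62. At an unadjusted limma p under 0.05, 4 members were higher and 3 lower in PPARα/CREB3L3−/− than in PPARα−/− mice.

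The largest differences were in Hpd, Gnmt, Haao and Prodh2. For Hpd the CREB3L3 effect was −4.26 in the presence of PPARα and −0.06 (SE 0.44) in its absence, a difference of 4.19 (SE 0.60, limma adjusted p = 5.45e-06). For Gnmt, which read 11.66, 11.41 and 11.63 in PPARα−/− mice and 11.94, 11.84, 11.98 and 11.97 in mice lacking both, the effects were −3.65 and 0.37 (SE 0.33), a difference of 4.02 (SE 0.46, adjusted p = 1.85e-07). For Ppm1k they were −3.22 and −0.23 (SE 0.18), a difference of 2.98 (SE 0.24, adjusted p = 1.4e-09). Fah had the lowest P, with a difference of 1.88 (SE 0.12, adjusted p = 6.13e-11).

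Bckdk went the other way. It read 7.93, 8.45 and 8.45 in PPARα−/− mice and 7.65, 7.89, 7.38 and 7.59 in mice lacking both, so that all 4 of the latter lay below the lowest of the former. The log2 difference was −0.65 (SE 0.13, limma adjusted p = 0.00752), against 0.46 between CREB3L3−/− and WT mice. The difference between these effects was −1.11 (SE 0.18, adjusted p = 2.99e-05). The members for which the difference did not meet the criteria were Bcat2, Tat, Gldc, Gcsh and Got1, with values between 0.05 and 0.72.

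**Figure D4:**
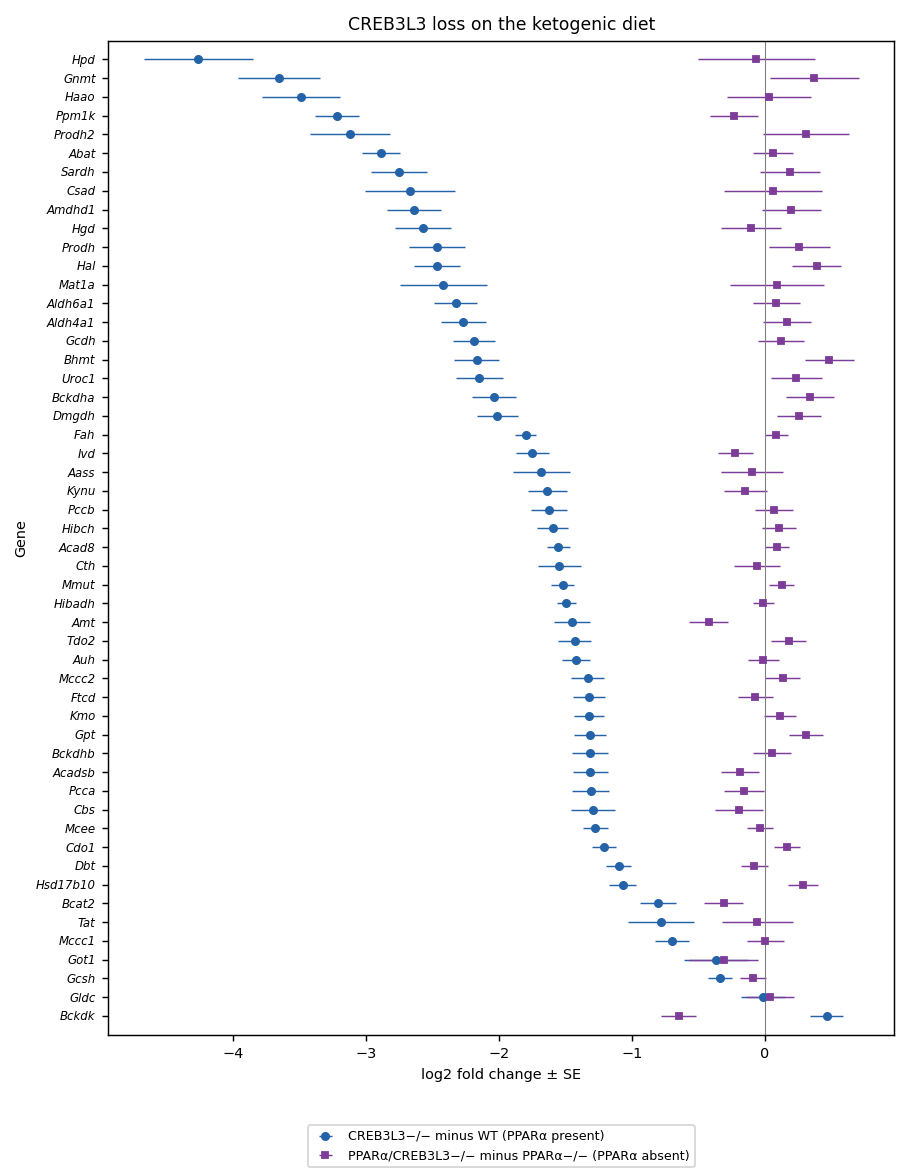
Log2 effect of losing CREB3L3 on the ketogenic diet for each member, with its SE, in the presence of PPARα (CREB3L3−/− minus WT) and in its absence (PPARα/CREB3L3−/− minus PPARα−/−). In the presence of PPARα the points run down to −4.26 for Hpd, and in its absence they lie around 0 with Bckdk at −0.65.

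The regimen changed how the loss of CREB3L3 appeared. The CREB3L3 effect was lower on the diet than after the fast for 44 of 52 members and higher for 0, by a test of the difference, against 5.78% of all probe sets lower and 7.99% higher, and the median difference was −1.42. At an unadjusted limma p under 0.05 it was lower for 47 and higher for 2. The members without a called difference were Bcat2, Bckdk, Mccc1, Hsd17b10, Tat, Gldc, Gcsh and Got1. Hsd17b10 was one of the 2 members that had already fallen in fasted CREB3L3−/− mice, and its effects were −0.54 fasted and −1.07 on the diet. For the loss of PPARα, 3 members differed between the regimens, against 4.83% of all probe sets changed. Fah (−0.65) and Cdo1 (−0.52) were lower on the diet than after the fast relative to WT, and Gpt (0.76) was higher. This last count was 1 without WT replicate 2 or PPARα−/− replicate 3 of the diet and 5 without WT replicate 1 of the diet.

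Between the regimens in WT mice, 7 members were lower on the diet than after the fast and 0 were higher, against 4.25% of all probe sets changed. The median log2 difference was −0.16, and at an unadjusted limma p under 0.05 there were 19 lower and 5 higher. Aass read 11.85, 11.93, 11.70 and 11.03 after the fast and between 9.92 and 10.54 on the diet, a fall of 1.34 (SE 0.21, limma adjusted p = 0.000343). Cth read 11.94, 12.36, 12.32 and 11.67 after the fast and 10.69, 10.75, 10.95 and 11.15 on the diet, a fall of 1.19 (SE 0.16, adjusted p = 5.05e-05). Hsd17b10 (−1.14), Bhmt (−1.08), Kynu (−1.01) and Hal (−0.73) were lower without overlap. Got1 was lower by 1.17 (SE 0.24, adjusted p = 0.0032), but fasted WT replicate 4, at 10.71 against 12.08 to 12.17 on the other fasted WT arrays, lay within the range of the diet group.

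The regimens differed for more members in the knockouts. In PPARα−/− mice 18 members were lower on the diet, where 10.2% of all probe sets changed, with a median of −0.41. In PPARα/CREB3L3−/− mice 18 were lower and 2 higher, Gpt (0.98) and Gldc (0.94), where 14.5% changed, with a median of −0.31. In CREB3L3−/− mice 48 were lower, where 11.1% of all probe sets fell and 14.3% rose, with a median of −1.56, and Bckdk rose by 0.96. Gnmt read 11.95, 11.89, 11.89 and 11.96 in fasted CREB3L3−/− mice against 6.39 to 9.02 on the diet, and Hpd 12.42, 12.44, 12.47 and 12.47 against 6.82 to 10.47.

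The other genes of these pathways, from a list of 70 that holds none of the members, moved less evenly in CREB3L3−/− mice on the diet. Of the 70, 43 fell and 12 rose, with a median log2 change of −0.77. Breakdown enzymes were among the widest falls. Agxt, the alanine-glyoxylate transaminase, fell by 3.55 (SE 0.19), Oat, the ornithine transaminase, by 2.86 (SE 0.15), Pipox, the pipecolate oxidase, by 2.37 (SE 0.14) and Suox, the sulphite oxidase, by 2.14 (SE 0.15). The 12 that rose, named here after their values were seen, included the enzymes of serine synthesis Phgdh (3.34, SE 0.20), Psat1 (3.31, SE 0.40) and Psph (1.2, SE 0.15), Aldh18a1 of proline synthesis (2.55, SE 0.32), the asparagine synthetase Asns (2.48, SE 0.57) and Oxct1, which uses ketone bodies (2.56, SE 0.22). Mtr, the methionine synthase, Mtap, Gclc, Mif, Acmsd and Asrgl1 rose by 0.53 to 1.82.

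Synthesis genes differed in whether they rose in the other knockouts. Phgdh lay between 7.04 and 8.24 in CREB3L3−/− mice on the diet, against 4.13 to 4.82 in WT mice, 4.75 to 5.08 in PPARα−/− mice and 4.32 to 4.84 in mice lacking both. Asns lay between 9.23 and 9.76 in CREB3L3−/− mice, 9.75 and 9.97 in PPARα−/− mice and 9.61 and 10.3 in mice lacking both, against 6.11 to 8.04 in WT mice. It rose in all 3 knockouts, by 2.48 to 2.95, whereas Phgdh was not called in PPARα−/− mice (0.44) or in mice lacking both (0.10). Over the 70 genes, 25 fell and 8 rose in PPARα−/− mice (median −0.21) and 28 fell and 5 rose in mice lacking both (median −0.31).

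Of 13 regulators of these routes, 6 fell and 0 rose in CREB3L3−/− mice on the diet, with a median log2 change of −0.63. Klf15, a transcription factor known for its control of amino acid breakdown, fell by 2.06 (SE 0.20, limma adjusted p = 4.98e-09), and Gcgr, the glucagon receptor, by 1.97 (SE 0.17, adjusted p = 5.85e-10). Klf15 lay between 6.96 and 8.30 there, against 9.43 to 9.97 in WT mice, 8.61 to 9.35 in PPARα−/− mice and 9.06 to 9.34 in mice lacking both. The values of CREB3L3−/− mice did not overlap those of the other groups of the diet, and both other knockouts also lay below WT, by 0.70 (SE 0.22) and 0.49 (SE 0.20), without a call. Of the 13 regulators, 4 fell and 0 rose in PPARα−/− mice (median −0.39) and 5 fell and 0 rose in mice lacking both (median −0.35).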

How the data were processed

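Expression was measured on 30 Affymetrix Mouse Gene 1.1 ST arrays of mouse liver RNA (RNA integrity number over 8 per the labels). The authors deposited log2 intensities, normalised by robust multichip averaging (RMA) from probe level models, with software releases not given in the sources used here. A remapped probe definition is named in the methods, whereas the deposited identifiers are those of the manufacturer. RMA gives all arrays nearly the same distribution, so that a shift shared by all genes cannot be seen, and dim probe sets have compressed changes. For arrays no read depth applies, and the number of arrays limits the precision.

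Groups came from the labels. A gene was read on its probe set of 1 symbol with the highest mean. limma 3.58.1 in R 4.3.3 was fitted to all 35556 probe sets with 8 group means and an intensity trend (22 residual and 3.47 prior degrees of freedom), which shares 1 spread per gene across groups. Contrasts were each knockout against WT, the combined against the PPARα knockout, the regimens within a genotype, and differences of these. Calls needed P under 0.001 and a fold beyond 1.2, the criteria of the study. Members named were taken from those called, by route, as a rule up to 6 a route by lowest P, with 1 or 2 that did not pass. Between the regimens in the knockouts only some of the members called were named. Per-array values were given for the members with the widest span. For others, such as Bckdk, Tat, Gldc, Mcee, Cth and Got1, they were given after their values were seen. The scripts were tested on simulated data. Alternatives were other normalisations, filters, criteria and fits, a replicate block and leaving out each array. Same-numbered arrays did not pair: over 43 pairs the correlation of their deviations ran from −0.11 to 0.12. The members, lists and tests were chosen with earlier results of these data known. Promoters were RefSeq entries on GRCm38.p6.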

Additional observations from a re-analysis of the deposited data

Results flagged for a closer look

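Single livers stood apart from their group in 8 of 312 tests over members and groups of 4 arrays (2.56%), by the gap to the nearest array relative to the range of the group. Chance gives about 1 in 20. In fasted WT mice these were Got1 at 10.7 on replicate 4, against 12.1 on the nearest array, Hgd at 11.4 on replicate 4 (nearest 11.8) and Pccb at 9.69 on replicate 1 (nearest 9.81). In fasted PPARα/CREB3L3−/− mice it was Cdo1 at 12.6 on replicate 2 (nearest 12.4). In PPARα/CREB3L3−/− mice on the ketogenic diet these were Hpd at 11.9 and Prodh at 10.7 on replicate 4 (nearest 11.7 and 10.4) and Ftcd at 9.96 on replicate 2 (nearest 9.78). In CREB3L3−/− mice on the diet it was Hsd17b10 at 9.16 on replicate 1 (nearest 8.99).

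The effect of losing PPARα differed between the regimens, by the test of the difference (diet minus fast, log2), for Fah at −0.65, Cdo1 at −0.52 and Gpt at 0.76.

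The effect of losing CREB3L3 differed between the regimens in the same sense for 44 members, each lower on the diet. In branched-chain and propionate breakdown the difference was −2.56 for Abat, −2.28 for Ppm1k, −2.21 for Aldh6a1, −1.70 for Bckdha, −1.50 for Pccb, −1.44 for Mmut, −1.37 for Ivd, −1.35 for Hibch, −1.33 for Mcee, −1.30 for Acad8 and Auh, −1.27 for Hibadh, −1.26 for Mccc2, −1.25 for Bckdhb and Pcca, −1.14 for Acadsb and −0.92 for Dbt. In aromatic breakdown it was −4.06 for Hpd, −3.34 for Haao, −2.42 for Hgd, −1.70 for Fah, −1.49 for Kynu, −1.45 for Tdo2 and −1.22 for Kmo. In histidine breakdown it was −2.66 for Amdhd1, −2.33 for Hal, −1.82 for Uroc1 and −1.09 for Ftcd. For Csad and Cdo1 it was −3.48 and −1.17. Among the glycine members it was −2.48 for Sardh, −1.67 for Dmgdh and −1.21 for Amt, and among the proline members −3.16 for Prodh2, −2.38 for Prodh and −1.98 for Aldh4a1. For Gcdh and Aass it was −2.02 and −1.61. In the methionine routes it was −3.49 for Gnmt, −2.40 for Mat1a, −1.80 for Bhmt, −1.40 for Cth and −1.25 for Cbs, and for Gpt it was −1.05.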

How the results depend on the processing

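Of 308 called values of single members, none changed sign under any setting run, and 54 of 2939 recomputed values missed the criteria under other settings and 160 of 3107 without 1 array. The counts against WT mice for CREB3L3−/− mice and for mice lacking both factors on the diet, and those for the difference of CREB3L3 effects on the diet and between regimens, stayed within 1.5 times of those reported under all settings run. With the arrays of 1 regimen fitted alone, the counts were 11, 4 and 17 in fasted PPARα−/−, CREB3L3−/− and PPARα/CREB3L3−/− mice and 14 in PPARα−/− mice on the diet; the fit then rests on fewer arrays. With an adjusted p under 0.05 in place of P under 0.001, they were 8 in fasted PPARα−/− mice, 2 between the fasted combined and PPARα knockouts, 12 between the regimens in WT mice, 0 for the fasted difference of CREB3L3 effects and 9 for the PPARα effect between regimens. Without the intensity trend the fasted combined and PPARα knockouts differed in 2 members. With the replicate number as a block they differed in 2 as well, and the other counts stayed within 1.5 times; the numbers do not pair the samples, so the block is a setting only. Leaving out 1 array at a time gave 3 to 5, 2 to 3 and 8 to 11 members in fasted PPARα−/−, CREB3L3−/− and PPARα/CREB3L3−/− mice, and 14 to 23, 47 to 48 and 21 to 26 in the same genotypes on the diet. It gave 1 to 4 and 1 to 2 between the combined and PPARα knockouts fasted and on the diet, 6 to 10, 12 to 15, 49 to 50 and 16 to 20 between regimens in WT, PPARα−/−, CREB3L3−/− and PPARα/CREB3L3−/− mice, 2 and 46 to 47 for the difference of CREB3L3 effects fasted and on the diet, and 1 to 5 and 44 to 46 for the PPARα and CREB3L3 effects between regimens. The 2 on the diet came without PPARα/CREB3L3−/− replicate 2. The causes were not tested. Dim probe sets limit what can be seen for Bcat2, the dimmest member.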
